A study of Mus musculus with 21 samples.

Results

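The proteasome genes described here are those whose platform symbol starts with Psma, Psmb, Psmc, Psmd, Psme, Psmf or Psmg and a digit. They were measured on mouse Affymetrix arrays in 2 sets of cultured cells, as 49 of 18193 genes in NMuMG cells and 48 of 12393 genes in NM18 cells. Psmb11, the beta subunit of the thymus, was represented in the NMuMG table alone. Psme2, the partner of Psme1, was found only on a probe set that carries several gene symbols and is not covered. The remaining members were named through 103 probe sets in NMuMG cells and 85 in NM18 cells, and the probe set with the highest mean stood for its gene. Psmc3ip and Psme3ip1 carry such symbols but are not subunits: Psmc3ip is a meiotic recombination factor named for binding Psmc3, and Psme3ip1 is a protein that binds Psme3.

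The proteasome is the barrel-shaped protease that degrades ubiquitin-tagged proteins in the cytoplasm and nucleus. Its core particle stacks rings of alpha (Psma) and beta (Psmb) subunits, and its regulatory particle holds a ring of ATPases (Psmc) and non-ATPase subunits (Psmd) that bind, strip and unfold the substrate. Psme proteins are other activators of the core, Psmf1 is an inhibitor, and Psmg proteins with Psmd5, Psmd9 and Psmd10 are chaperones of assembly. In cells exposed to interferon, Psmb8, Psmb9 and Psmb10 can replace the catalytic subunits Psmb5, Psmb6 and Psmb7, and such immunoproteasomes supply peptides for antigen presentation.

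The NMuMG cells, a mouse mammary epithelial line, fell into 4 groups of 3 arrays. All received 200 µM 4-thiouridine (4sU), a uridine analogue taken up into RNA during the 2 h of labelling, with 5 ng/ml transforming growth factor beta 1 (TGF-b1) for those 2 h or without it. From each treatment, 4sU-labelled RNA enriched by mercury-based chromatography (newly made RNA) and total RNA were hybridised. The NM18 cells, whose origin the labels do not give, fell into 3 groups of 3 arrays: 25 nM FoxQ1 siRNA for 48 h with 5 ng/ml TGF-b1 for the last 40 h, 25 nM scrambled control siRNA with the same TGF-b1, and the control siRNA without TGF-b1. TGF-b1 is a secreted cytokine under which epithelial cells take on mesenchymal traits, and FoxQ1 is a forkhead transcription factor. No group had FoxQ1 siRNA without TGF-b1. Replicates are described as biological by the submitters. A free-text note on array 1 of the control siRNA group without TGF-b1 describes TGF-b1 treatment. The title and treatment label, which name none, were followed.

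Values are the authors' log2 expression per probe set, and levels of different probe sets are not compared. A log2 change was called at an adjusted p under 0.05 in limma, with adjustment over all genes of the table, and "rose" and "fell" are used only of called changes. After ±, a log2 change carries its standard error and a level its SD over 3 arrays. The silencing target checked the labels: Foxq1 averaged 7.88 ± 0.27 with FoxQ1 siRNA and TGF-b1 against 9.15 ± 0.16 with control siRNA and TGF-b1, a fall of -1.27 ± 0.16 (adjusted p = 0.000291). The 7 epithelial markers, Cdh1 (E-cadherin) among them, averaged 8.80 to 9.95 over the NMuMG arrays and 10.0 to 10.4 over the NM18 arrays. In these bulk samples, fewer cells of a type and less RNA per cell cannot be told apart.

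The start regions of 4 genes on which the results turn are shown with the motif found in each, from 250 bases before to 50 bases after the RefSeq start. They are Psme1, the member that rose with FoxQ1 siRNA, Psme4 and Psmd8, which rose with TGF-b1 at 40 h, and Psmc3ip, which fell in both NM18 comparisons. All are from RefSeq on GRCm38.p6, 5′ to 3′ on the gene's strand, with the match in capitals.
Psme1: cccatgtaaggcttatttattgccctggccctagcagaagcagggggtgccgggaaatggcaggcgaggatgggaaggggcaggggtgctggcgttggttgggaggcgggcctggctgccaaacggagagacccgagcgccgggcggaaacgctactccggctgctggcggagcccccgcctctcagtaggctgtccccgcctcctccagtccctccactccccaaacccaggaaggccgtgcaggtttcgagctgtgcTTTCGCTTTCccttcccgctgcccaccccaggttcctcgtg
Psme4: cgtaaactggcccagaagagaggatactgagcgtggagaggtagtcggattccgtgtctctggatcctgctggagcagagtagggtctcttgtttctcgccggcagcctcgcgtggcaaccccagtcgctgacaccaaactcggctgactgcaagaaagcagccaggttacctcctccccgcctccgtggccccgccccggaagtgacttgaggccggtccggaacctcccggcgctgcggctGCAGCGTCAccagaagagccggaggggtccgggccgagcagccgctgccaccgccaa
Psmd8: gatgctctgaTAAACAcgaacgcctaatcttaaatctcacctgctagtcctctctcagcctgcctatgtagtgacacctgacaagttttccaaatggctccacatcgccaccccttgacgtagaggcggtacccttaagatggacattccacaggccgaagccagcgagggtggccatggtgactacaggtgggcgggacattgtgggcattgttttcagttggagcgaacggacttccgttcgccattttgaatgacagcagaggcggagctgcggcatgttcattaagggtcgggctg
Psmc3ip: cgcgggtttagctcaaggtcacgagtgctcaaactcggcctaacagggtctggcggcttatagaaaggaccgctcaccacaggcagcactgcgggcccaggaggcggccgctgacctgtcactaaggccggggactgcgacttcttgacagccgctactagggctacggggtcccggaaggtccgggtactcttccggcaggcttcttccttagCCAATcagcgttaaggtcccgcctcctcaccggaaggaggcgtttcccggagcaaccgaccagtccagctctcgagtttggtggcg
Psme1 lies on the plus strand (chr14:55578244-55578543) and its capitals mark an interferon-stimulated response element, searched as TTTC, any 2 bases and TTTC, that begins at position 10 relative to the start. Psme4 lies on the plus strand (chr11:30771525-30771824) and its capitals mark the reverse complement of TGACNNNGC, the core of the antioxidant response element bound by Nfe2l1 and Nfe2l2. Psmd8 lies on the minus strand (chr7:29180624-29180923) and its capitals mark the reverse complement of TGTTTA, a forkhead core. With FoxQ1 siRNA against control siRNA, both with TGF-b1, Psmd8 changed by -0.23 and was not called. Psmc3ip lies on the minus strand (chr11:101095386-101095685) and its capitals mark CCAAT, the box bound by the factor NF-Y.

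Promoter sequences were matched for 41 member genes with 44 starts, and both strands were searched. The interferon-stimulated response element was present in 11.4% of the member promoters against 3.44% of all 32851, namely in those of Psmb3, Psmd4, Psmd9, Psme1 and Psmg4. TGACNNNGC was present in 13.6% against 12.4%, in Psmb5, Psmb6, Psmc6, Psmd12, Psmd9 and Psme4. CCAAT was present in 36.4% against 37.4%, TTCNNNGAA (the gamma-activated site of interferon signalling) in 6.82% against 8.3%, and TGTTTA in 6.82% against 13.4%. The TGTTTA matches were in Psmb5, Psmc1 and Psmd8. These are letter matches and carry no test.

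Proteasome genes were lower in newly made than in total RNA, in TGF-b1-treated and in control cells. Of 49 members, 41 fell in TGF-b1 cells and 40 in control cells, and 0 rose in either by limma, also at an unadjusted p under 0.05. Over all genes 26.8% fell in TGF-b1 cells and 26.8% in control cells, while 18.3% and 17.2% rose in the same order. The median member change was -1.25 in TGF-b1 cells and -1.16 in control cells, against -0.08 over all genes in each. In each treatment 28 members had a log2 change of -1 or lower, a fall of at least 2-fold. All newly made arrays lay below all total arrays for 42 members in TGF-b1 cells (33.5% of all genes) and 41 in control cells (31.4%), and above them for 1 in TGF-b1 cells (21.3%) and 0 in control cells (18.7%). Since a newly made to total ratio depends on the scaling of each array, these values rank genes within the array and are not amounts of RNA per cell.

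**Figure D1:**
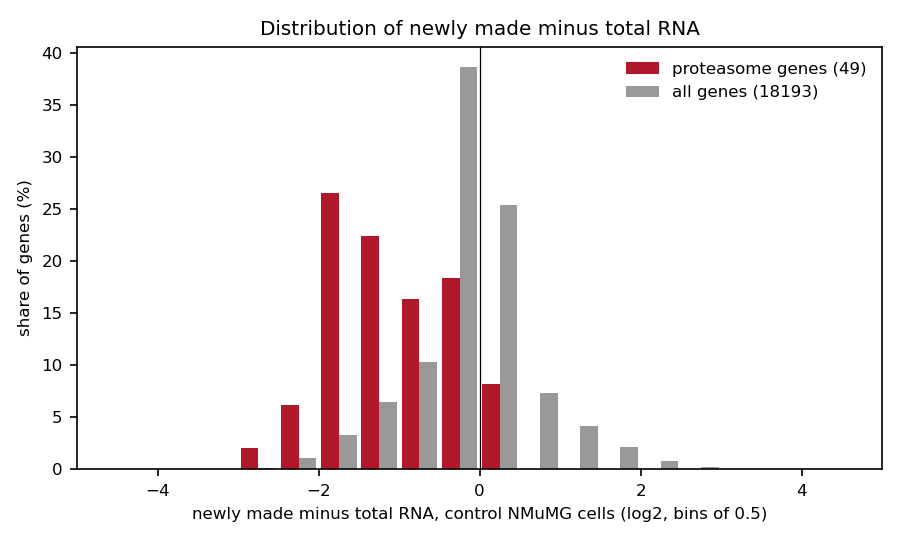
Share of genes (%) in bins of 0.5 of the newly made minus total log2 difference in control NMuMG cells, for 49 proteasome genes (red, left bar) and all 18193 genes (grey, right bar). The members' bars lie mostly below -0.5, around their median of -1.16, and all genes centre near their median of -0.08.

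Among the 11 non-ATPase subunits of the regulatory particle, 9 fell in each treatment. Psmd8, a lid subunit, had levels of 7.83, 7.81 and 7.89 in newly made RNA of TGF-b1 cells against 10.76, 10.44 and 10.40 in total RNA of those cells. In control cells it had 7.60, 7.87 and 8.42 in newly made RNA against 10.71, 10.33 and 10.99 in total RNA. The newly made arrays did not overlap the total arrays in either treatment, and the changes were -2.69 ± 0.19 in TGF-b1 cells (adjusted p = 1e-08) and -2.71 ± 0.19 in control cells (adjusted p = 1.2e-08). Psmd4, a ubiquitin receptor, changed by -2.30 ± 0.15 in both treatments. Psmd12, a lid subunit, changed by -1.80 ± 0.17 in TGF-b1 cells and -1.81 ± 0.17 in control cells, and Psmd13, another lid subunit, by -1.90 ± 0.16 and -2.01 ± 0.16. Psmd14, the deubiquitinase that strips the tag, fell less, by 0.37 ± 0.14 in TGF-b1 cells (adjusted p = 0.0409) and by 0.48 ± 0.14 in control cells (adjusted p = 0.00974). The Psmd14 call was lost with quantile normalization in both treatments (adjusted p = 0.586 in TGF-b1 cells and 0.685 in control cells), and in TGF-b1 cells also with median centring (adjusted p = 0.157) and in 5 of 6 cases of a left-out array. Psmd11 and Psmd6, also lid subunits, were called in neither treatment, at 0.19 ± 0.12 and -0.28 ± 0.17 in TGF-b1 cells and 0.12 ± 0.12 and -0.28 ± 0.17 in control cells. With quantile normalization Psmd11 was called higher in both treatments.

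On the probe sets standing for their genes, all 6 ATPases fell in both treatments, with medians of -1.45 in TGF-b1 cells and -1.48 in control cells. Psmc3 had 8.69, 8.82 and 8.89 in newly made against 10.98, 11.02 and 11.01 in total RNA of TGF-b1 cells. In control cells it had 8.54, 8.89 and 9.15 against 10.99, 10.82 and 11.60. No array of newly made RNA reached any array of total RNA, and the change was -2.21 ± 0.18 in TGF-b1 cells and -2.27 ± 0.18 in control cells. Psmc1 changed by -1.64 ± 0.16 in TGF-b1 cells and -1.57 ± 0.16 in control cells. Psmc6 had the smallest change of the ring, -0.32 ± 0.12 in TGF-b1 cells (adjusted p = 0.0353) and -0.44 ± 0.12 in control cells (adjusted p = 0.00504). Over all its probe sets Psmc6 averaged -0.022 in TGF-b1 cells (adjusted p = 0.923) and -0.039 in control cells (adjusted p = 0.862), and in TGF-b1 cells its call was also lost with median centring (adjusted p = 0.176) and in 4 of 6 cases of a left-out array.

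In the core particle, all 7 constitutive beta subunits fell in both treatments, with medians of -1.46 in TGF-b1 cells and -1.48 in control cells. Psmb5, with chymotrypsin-like activity, had 10.33, 10.55 and 10.41 in newly made against 11.83, 11.77 and 11.85 in total RNA of TGF-b1 cells, and 10.31, 10.77 and 10.54 against 11.91, 11.64 and 12.14 in control cells. Its groups were apart, and its changes were -1.39 ± 0.14 in TGF-b1 cells and -1.36 ± 0.14 in control cells. Psmb6, with caspase-like activity, changed by -1.65 ± 0.15 in TGF-b1 cells and -1.70 ± 0.15 in control cells, and Psmb7, with trypsin-like activity, by -1.41 ± 0.15 and -1.52 ± 0.15. Psmb1 and Psmb2, which have no catalytic site, had -1.64 ± 0.15 and -1.62 ± 0.11 in TGF-b1 cells and -1.66 ± 0.15 and -1.48 ± 0.11 in control cells. Of the 8 alpha subunits, 7 fell in each treatment, with Psma7 at -1.83 ± 0.16 in TGF-b1 cells and -1.74 ± 0.16 in control cells. Psma8, the testis alpha subunit, did not pass.

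The inducible subunits differed among themselves. Psmb10 changed by -1.69 ± 0.15 in TGF-b1 cells and -1.67 ± 0.15 in control cells (adjusted p = 8.46e-08 and 1.08e-07). Psmb8 changed by only -0.30 ± 0.11 and -0.31 ± 0.11 in the same order (adjusted p = 0.0315 and 0.028). Psmb9 fell by 0.41 ± 0.14 in TGF-b1 cells (adjusted p = 0.0206) and had -0.30 ± 0.14 in control cells (adjusted p = 0.0876). Psmb8, Psmb9, Psma8 and Psmb11 were the 4 members with a mean below the median gene of the table. With only the 9096 genes above that median, the other 45 members gave 39 falls in each treatment, against 42.1% of those genes in TGF-b1 cells and 43.0% in control cells. With array medians centred, the number of members that fell was 34 in TGF-b1 cells and 39 in control cells. Centring also moved the median of all genes, by 0.12 and 0.11 in the same order. The share of all genes that fell after centring is not given here. Psmb8 was lost in both treatments, and Psmb9, Psmc6, Psmd1, Psmd7, Psmd14 and Psme3ip1 in TGF-b1 cells. When each of 6 arrays was left out in turn, Psmb8 passed in 1 case in TGF-b1 cells and in 4 cases in control cells, and Psmb9 in 2 cases in each treatment. With the replicate number as a block within each kind of RNA, Psmb9 passed in control cells too (adjusted p = 0.0315).

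Of the activators, Psme1 and Psme3 fell in both treatments. Psme1, the alpha subunit of the interferon-inducible activator, had 7.51, 7.69 and 7.54 in newly made against 9.45, 9.61 and 9.52 in total RNA of TGF-b1 cells. In control cells it had 7.55, 7.89 and 7.71 against 9.54, 9.61 and 9.76. The groups were apart, and the changes were -1.95 ± 0.12 in TGF-b1 cells (adjusted p = 2.39e-09) and -1.92 ± 0.12 in control cells (adjusted p = 3.71e-09). Psme3, the nuclear activator, changed by -1.74 ± 0.13 in TGF-b1 cells and -1.67 ± 0.13 in control cells. Psme4, the large activator linked to histone degradation, was not called, at -0.17 ± 0.13 in TGF-b1 cells and -0.28 ± 0.13 in control cells, but passed as lower in control cells with the replicate block within each kind of RNA (adjusted p = 0.0422). The inhibitor Psmf1 had -0.02 ± 0.15 in TGF-b1 cells and 0.17 ± 0.15 in control cells and was not called, though with quantile normalization it passed as higher in control cells (adjusted p = 0.0234).

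Of the 7 assembly chaperones, 5 fell in each treatment. Psmg4, which pairs with Psmg3 in building the alpha ring, changed by -1.83 ± 0.15 in TGF-b1 cells and -1.64 ± 0.15 in control cells, and Psmd9, a chaperone of the ATPase ring, by -1.60 ± 0.13 and -1.63 ± 0.13. Psmd10, the oncoprotein gankyrin and a chaperone of the same ring, had 0.02 ± 0.15 in TGF-b1 cells and 0.00 ± 0.15 in control cells. Averaged over all its probe sets, Psmd9 had 0.022 in TGF-b1 cells (adjusted p = 0.906) and -0.065 in control cells (adjusted p = 0.702). With such averaging the Psmg3 call was also lost in both treatments (adjusted p = 0.223 in TGF-b1 cells and 0.308 in control cells). The 40 members called in control cells were all among the 41 of TGF-b1 cells, and no change differed by more than 0.33 between the treatments. The plot of newly made against total RNA shows both treatments for each gene.

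**Figure D2:**
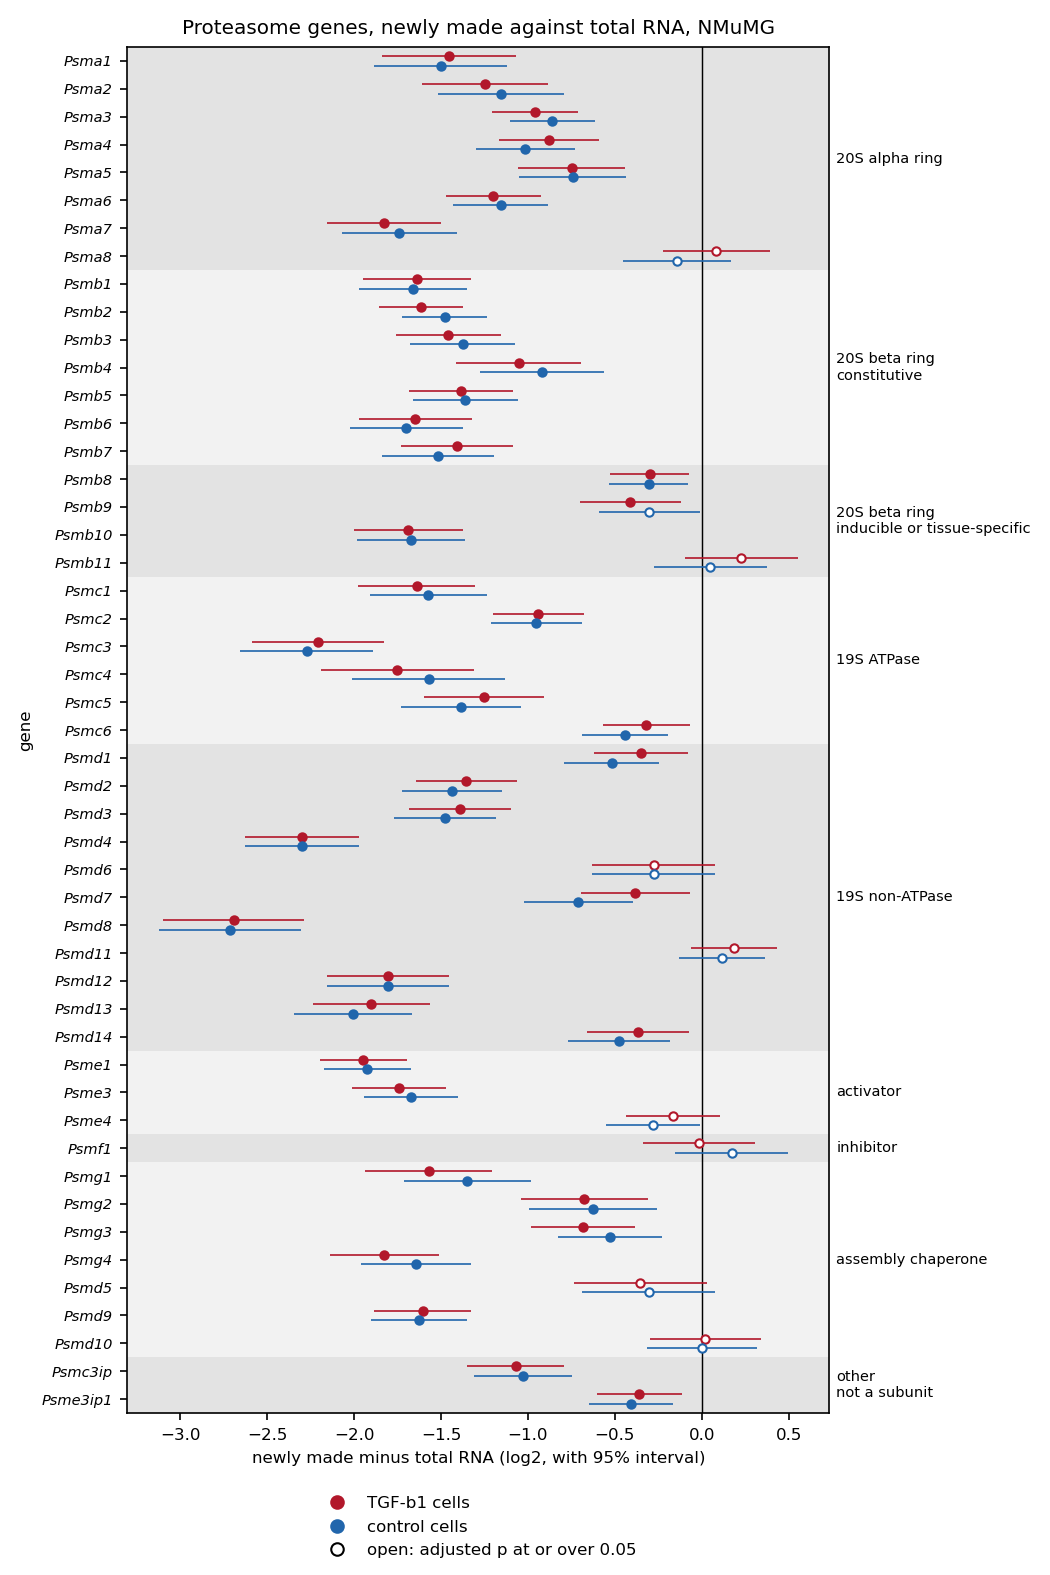
Newly made minus total RNA (log2, with the 95% interval) for each of 49 proteasome genes in NMuMG cells, by role, with TGF-b1 cells (red) above control cells (blue). Filled points passed an adjusted p under 0.05. Psmd8 lies farthest left at -2.69 and -2.71, whereas Psmd10, Psmd11, Psmf1 and Psmb11 lie around 0.

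The result depended on which probe set was read. The 49 probe sets that stand for their genes gave 0 higher and 41 lower in TGF-b1 cells, and 0 higher and 40 lower in control cells. The other 54 probe sets of the same genes gave 17 higher and 20 lower in TGF-b1 cells, and 15 higher and 23 lower in control cells. In control cells 12 of the 27 genes with several probe sets had such a probe set that rose, and for 9 of them the probe set standing for the gene fell. For the alpha subunit Psma6, the standing probe set changed by -1.20 ± 0.13 in TGF-b1 cells and -1.16 ± 0.13 in control cells, while another rose by 2.85 ± 0.21 and 2.31 ± 0.21. For Psma3, also an alpha subunit, the standing probe set gave -0.96 ± 0.12 in TGF-b1 cells and -0.86 ± 0.12 in control cells, and its other probe set 1.53 ± 0.15 and 1.47 ± 0.15. For Psme4, 1 of 6 probe sets fell in TGF-b1 cells and 3 rose, and the highest rises were 2.16 ± 0.19 in TGF-b1 cells and 1.79 ± 0.19 in control cells. With all probe sets of a gene averaged, 3 members were higher and 32 lower in TGF-b1 cells, and 3 higher and 30 lower in control cells. Shares of all genes or probe sets called under these readings are not given here, so the counts are not set against a background.

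A measure of RNA ends moved with the same contrast. The 3′ minus 5′ difference of the Gapdh control probe sets was 2.68 to 3.39 in newly made and 1.87 to 1.92 in total RNA of TGF-b1 cells, and 2.67 to 3.72 in newly made and 1.63 to 1.94 in total RNA of control cells. That of the Actb controls was on average 2.26 ± 0.59 in newly made against 1.49 ± 0.10 in total RNA of TGF-b1 cells, and 2.45 ± 0.66 against 1.44 ± 0.09 in control cells. Its part in the newly made against total differences was not tested.

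Partner genes with other names moved in both directions. Of 22 measured partners (shuttle factors, deubiquitinases, chaperones and regulators of proteasome genes), 6 rose and 10 fell in each treatment, with medians of -0.19 in TGF-b1 cells and -0.18 in control cells. Uchl5, a deubiquitinase of the regulatory particle, changed by -2.09 ± 0.13 in TGF-b1 cells and -2.17 ± 0.13 in control cells. Pomp, the chaperone of core maturation, changed by -1.58 ± 0.17 and -1.65 ± 0.17, Sem1, a small lid subunit, by -1.43 ± 0.15 and -1.37 ± 0.15, and Bag6, a chaperone of mislocalised proteins, by -1.57 ± 0.13 and -1.70 ± 0.13 in the same order. Uba6, a ubiquitin-activating enzyme, was higher in newly made RNA, by 1.66 ± 0.15 in TGF-b1 cells and 1.53 ± 0.15 in control cells. Vcp, the ATPase that extracts ubiquitinated proteins from complexes, changed by -1.20 ± 0.19 in TGF-b1 cells and -1.32 ± 0.19 in control cells.

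After 2 h of TGF-b1, 0 of 49 members passed limma's test at an adjusted p under 0.05, whichever kind of RNA was read. In newly made RNA 3.35% of all genes were called higher and 2.79% lower (6.13% in all), and in total RNA 1.46% higher and 1.02% lower (2.48% in all). At an unadjusted p under 0.05 the members' counts were 2 in newly made and 0 in total RNA. The groups did not overlap for 1 member higher and 2 lower in newly made RNA (8.45% and 9.05% of all genes), and for 1 higher and 2 lower in total RNA (7.35% and 10.7%). All 49 intervals of the change lay within a 2-fold change either way in each kind of RNA. The medians were -0.07 in newly made RNA, against -0.01 over all genes, and -0.10 in total RNA, against -0.03 over all genes. Without array 3 of control total RNA the members' median in total RNA was 0.02.

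The 2 members at an unadjusted p under 0.05 were assembly chaperones. Psmg1 had 7.96, 8.37 and 8.26 in newly made RNA of TGF-b1 cells against 8.27, 8.77 and 8.92 in that of control cells. The groups overlapped, since TGF-b1 array 2 was above control array 1, and the change was -0.46 ± 0.17 (adjusted p = 0.17). Psmg3 averaged 8.81 ± 0.18 in TGF-b1 cells against 9.14 ± 0.21 in control cells, overlapping by the same pair of arrays, with a change of -0.34 ± 0.14 (adjusted p = 0.238). All 7 chaperones had a change below 0 in each kind of RNA, with medians of -0.23 in newly made and -0.18 in total RNA. In total RNA all 8 alpha subunits, all 11 non-ATPase subunits and all 3 measured activators were below 0 too. Of the 7 constitutive beta subunits and 6 ATPases, 4 each were below 0 there. In newly made RNA 6 of 8 alpha subunits, 6 of 11 non-ATPase subunits and 2 of 3 activators were below 0. These members were read on the same arrays, and 0 were called. The share of all genes below 0 is not given here, so these counts are not set against a background. Without array 3 of control total RNA the median of all members in total RNA was above 0, at 0.02. Same-numbered arrays of one kind of RNA deviated together, and with the replicate number as a block within each kind of RNA both genes passed in newly made RNA, Psmg1 at an adjusted p of 0.012 and Psmg3 at 0.0493. With a single replicate block over both kinds of RNA only Psmg1 passed (adjusted p = 0.0478), and without array 1 of control newly made RNA Psmg1 (adjusted p = 0.0185) and Psmf1 (adjusted p = 0.0452) did.

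None of the catalytic and inducible subunits passed at 2 h, and none had an unadjusted p under 0.05 in limma. In newly made RNA, Psmb5 had -0.11 ± 0.14, Psmb6 -0.06 ± 0.15 and Psmb7 0.16 ± 0.15, and in total RNA -0.08 ± 0.14, -0.12 ± 0.15 and 0.05 ± 0.15. Psmb8 had 0.15 ± 0.11 in each kind of RNA, Psmb9 0.07 ± 0.14 in newly made and 0.18 ± 0.14 in total RNA, and Psmb10 -0.23 ± 0.15 and -0.22 ± 0.15. Psme1 had -0.13 ± 0.12 in newly made and -0.11 ± 0.12 in total RNA, Psmd14 0.01 ± 0.14 and -0.10 ± 0.14, and the inhibitor Psmf1 -0.31 ± 0.15 and -0.12 ± 0.15. The TGF-b1 effect differed between newly made and total RNA for 0 of 49 members, against 0.066% of all genes (0.011% higher and 0.055% lower), and 0 members had an unadjusted p under 0.05 in limma. Of the 22 partners, Nfe2l2, a factor of the oxidative stress response, fell by 1.00 ± 0.19 in newly made (adjusted p = 0.00277) and by 0.87 ± 0.19 in total RNA (adjusted p = 0.015). Ngly1, the deglycosylase that activates Nfe2l1, fell by 0.80 ± 0.13 in newly made RNA (adjusted p = 0.00116) and had -0.34 ± 0.13 in total RNA (adjusted p = 0.351).

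**Figure D3:**
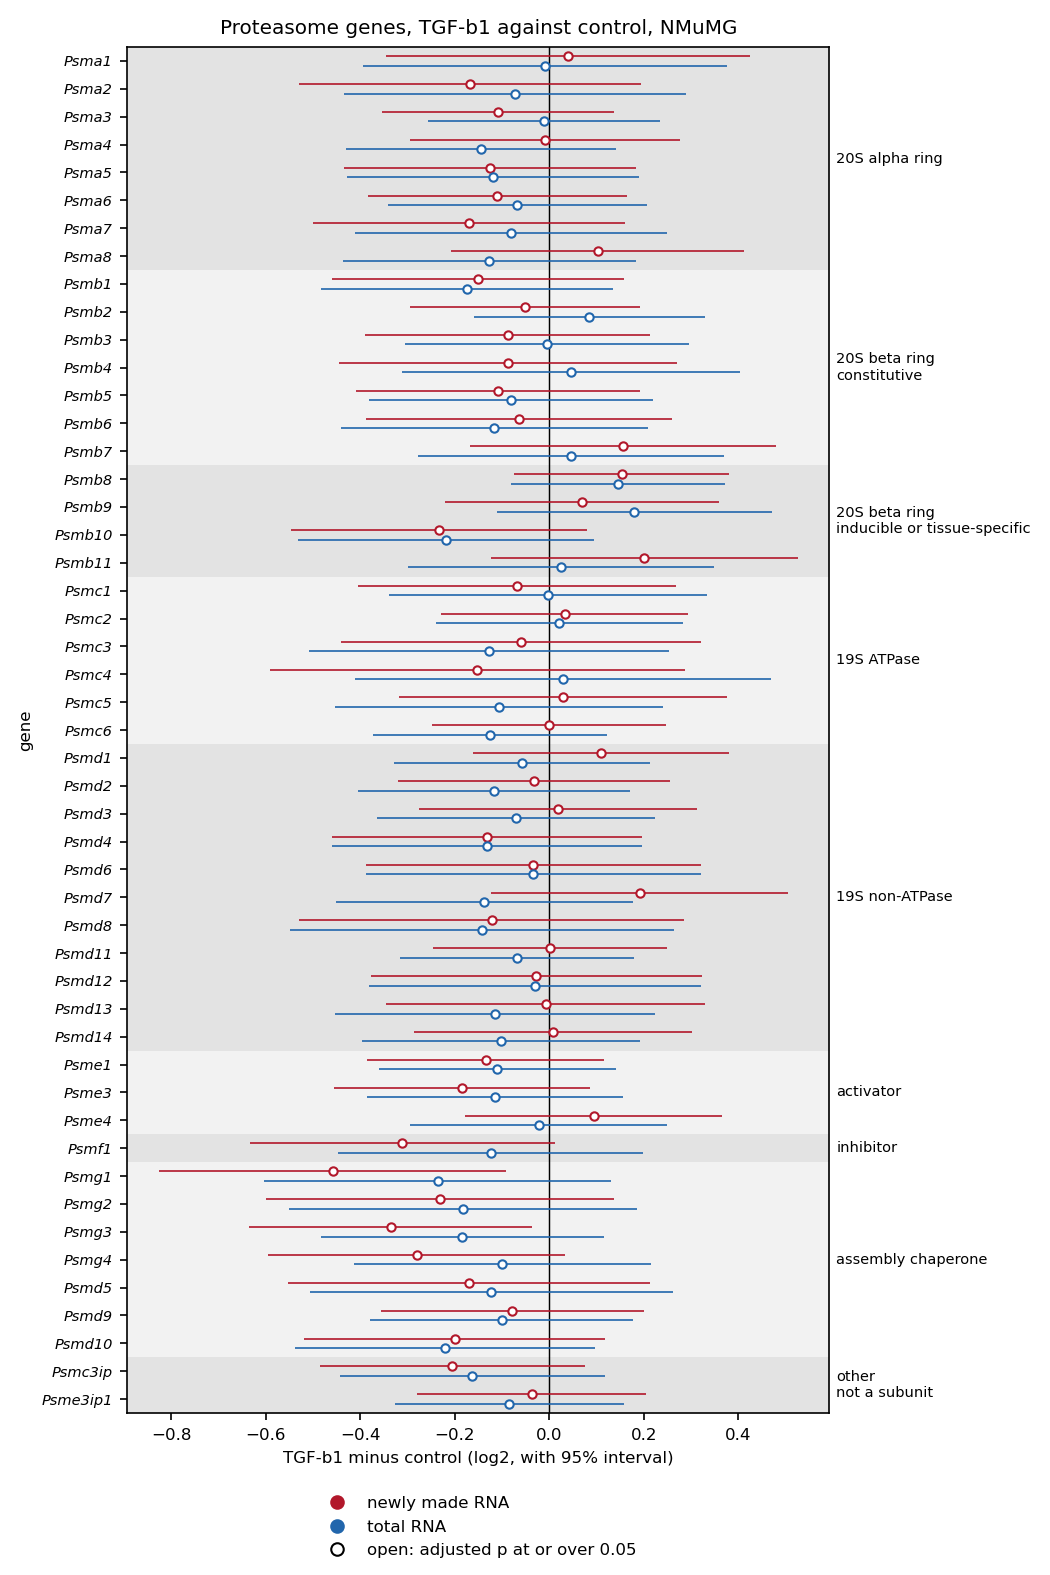
TGF-b1 minus control at 2 h (log2, with the 95% interval) for each of 49 proteasome genes in NMuMG cells, by role, with newly made RNA (red) above total RNA (blue). All points are open, since 0 members passed, and Psmg1 lies farthest left at -0.46 in newly made RNA.

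After 40 h of TGF-b1 in NM18 cells with control siRNA, 15 of 48 members passed, 5 higher and 10 lower. Over all genes 13.2% rose and 17.5% fell, 30.7% in all. The groups did not overlap for 7 members higher and 17 lower, against 19.3% and 22.6% of all genes. The median member change was -0.083, against 0.0049 over all genes. Members were called about as often as genes at large, and no pattern by role was tested. The rises were in regulatory particle subunits, an activator and an inducible subunit, and the falls included 4 of 7 assembly chaperones. The members' values are from other arrays than the 2 h values and another table, so levels are not compared with NMuMG cells.

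Psmd8 had 12.37, 12.37 and 12.47 with TGF-b1 against 11.54, 12.07 and 11.73 without it. All TGF-b1 arrays were higher, and the change was 0.63 ± 0.13 (adjusted p = 0.00336). Psmd1, a scaffold subunit, rose by 0.30 ± 0.07 (adjusted p = 0.00705), with 11.82, 11.72 and 11.79 against 11.58, 11.46 and 11.39. Psmd11 rose by 0.17 ± 0.06 (adjusted p = 0.0463), but its call was lost whichever of the 6 arrays was left out. Psme4 had 11.35, 11.53 and 11.56 with TGF-b1 against 10.98, 11.18 and 11.09 without, which do not overlap, and rose by 0.39 ± 0.07 (adjusted p = 0.00194).

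Psmb10 was the only inducible subunit to pass. It had 9.29, 9.14 and 9.43 with TGF-b1 against 8.85, 8.91 and 8.91 without, with no overlap, and rose by 0.39 ± 0.08 (adjusted p = 0.00252). Psmb8 had 0.13 ± 0.09 (adjusted p = 0.331) and Psmb9 -0.13 ± 0.07 (adjusted p = 0.233). Both had a mean level below the median gene of the NM18 table (percentiles 25.5 and 29.2), whereas Psmb10 lay above it. Of 6 measured genes that act with immunoproteasomes in antigen presentation, 3 rose: B2m, the light chain of MHC class I, by 0.88 ± 0.10, Tapbp, which loads peptides, by 0.80 ± 0.12, and Erap1, which trims them, by 0.72 ± 0.11. Leukocytes, which carry high levels of inducible subunits, had 2 of 10 markers higher and 1 lower, and the mean of the 10 was 6.74 to 6.80 with TGF-b1 and 6.79 to 6.84 without.

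Of the 4 Psmg chaperones of the alpha ring, 3 fell. Psmg2, the partner of Psmg1, had 9.29, 9.49 and 9.51 with TGF-b1 against 9.77, 9.80 and 9.97 without, a change of -0.42 ± 0.08 (adjusted p = 0.00229). Psmg1 had 9.61, 9.80 and 9.70 against 10.09, 10.08 and 9.99, a change of -0.35 ± 0.08 (adjusted p = 0.00523). All TGF-b1 arrays of both genes lay below all untreated ones. Psmg3 fell by 0.25 ± 0.07 (adjusted p = 0.0225), Psmg4 had -0.11 ± 0.07 (adjusted p = 0.343), and Psmd10 fell by 0.37 ± 0.09 (adjusted p = 0.00815). Psmd5 and Psmd9, the other chaperones of the ATPase ring, had -0.09 ± 0.06 and -0.14 ± 0.08 and did not pass. All 7 chaperone changes were below 0, and the share of all genes below 0 is not given here.

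In the core and regulatory particles the falls were spread over single genes. Psma1 averaged 11.53 ± 0.11 with TGF-b1 against 11.88 ± 0.13 without, with no overlap and a change of -0.35 ± 0.09 (adjusted p = 0.00861). Psma6 fell by 0.33 ± 0.10 (adjusted p = 0.0275), Psmb7 by 0.20 ± 0.06 (adjusted p = 0.0322) and Psmd13 by 0.33 ± 0.11 (adjusted p = 0.0342). Psmb5 had 0.14 ± 0.07 (adjusted p = 0.181), Psmb6 -0.17 ± 0.06 (adjusted p = 0.0554), Psmd14 0.03 ± 0.06 and the inhibitor Psmf1 -0.10 ± 0.07. Of the 6 ATPases 0 passed in limma and 1 had an unadjusted p under 0.05. All 6 changes were below 0, at a median of -0.12, and the share of all genes below 0 is not given here. Same-numbered NM18 arrays deviated together. The replicate number as a block added Psmb5 (adjusted p = 0.0485), Psmb6 (0.0291), Psmc5, an ATPase, and Psmd7, a lid subunit, for 19 in all. The share of all genes called with the block is not given here, and the 30.7% is from the fit without it.

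Psme3 fell by 0.44 ± 0.09 (adjusted p = 0.00273), with 9.19, 9.04 and 9.33 against 9.70, 9.55 and 9.63 and no overlap. Its other 2 probe sets had 0.03 ± 0.06 and 0.04 ± 0.09, and the mean of all its probe sets changed by -0.12 (adjusted p = 0.133). The largest change of the list was that of Psmc3ip, which had 8.44, 8.40 and 8.38 with TGF-b1 against 9.45, 9.21 and 9.09 without, a change of -0.84 ± 0.09 (adjusted p = 3.22e-05). All its TGF-b1 arrays were lower. The falls of Psma6, Psmb7, Psmd13 and Psmg3 were each lost without array 1 or array 2 of control siRNA with TGF-b1, or array 3 of control siRNA alone, and 10 members were called in each of these cases. Psmb7 and Psmd13 were also lost with median centring. Without the array whose note names TGF-b1, 4 members rose and 8 fell.

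Among the 21 partners measured in NM18 cells, 1 rose and 3 fell with TGF-b1. Zfand2a, a stress-induced proteasome-binding protein, rose by 0.94 ± 0.12 (adjusted p = 0.000113). Nfe2l2 fell by 0.97 ± 0.14 (adjusted p = 0.0003), Ngly1 by 0.74 ± 0.12 (adjusted p = 0.000723) and Uchl5 by 0.38 ± 0.08 (adjusted p = 0.00496).

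FoxQ1 siRNA against control siRNA, both with TGF-b1, changed 3 of 48 members, 1 higher and 2 lower. Over all genes 11.3% rose and 8.28% fell, 19.6% in all, and the medians were -0.0039 over the members and -0.0048 over all genes. The groups did not overlap for 5 members higher and 10 lower, against 19.2% and 15.5% of all genes. This comparison shares its control siRNA arrays with the TGF-b1 comparison at 40 h. The plot of NM18 effects sets the values side by side.

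**Figure D4:**
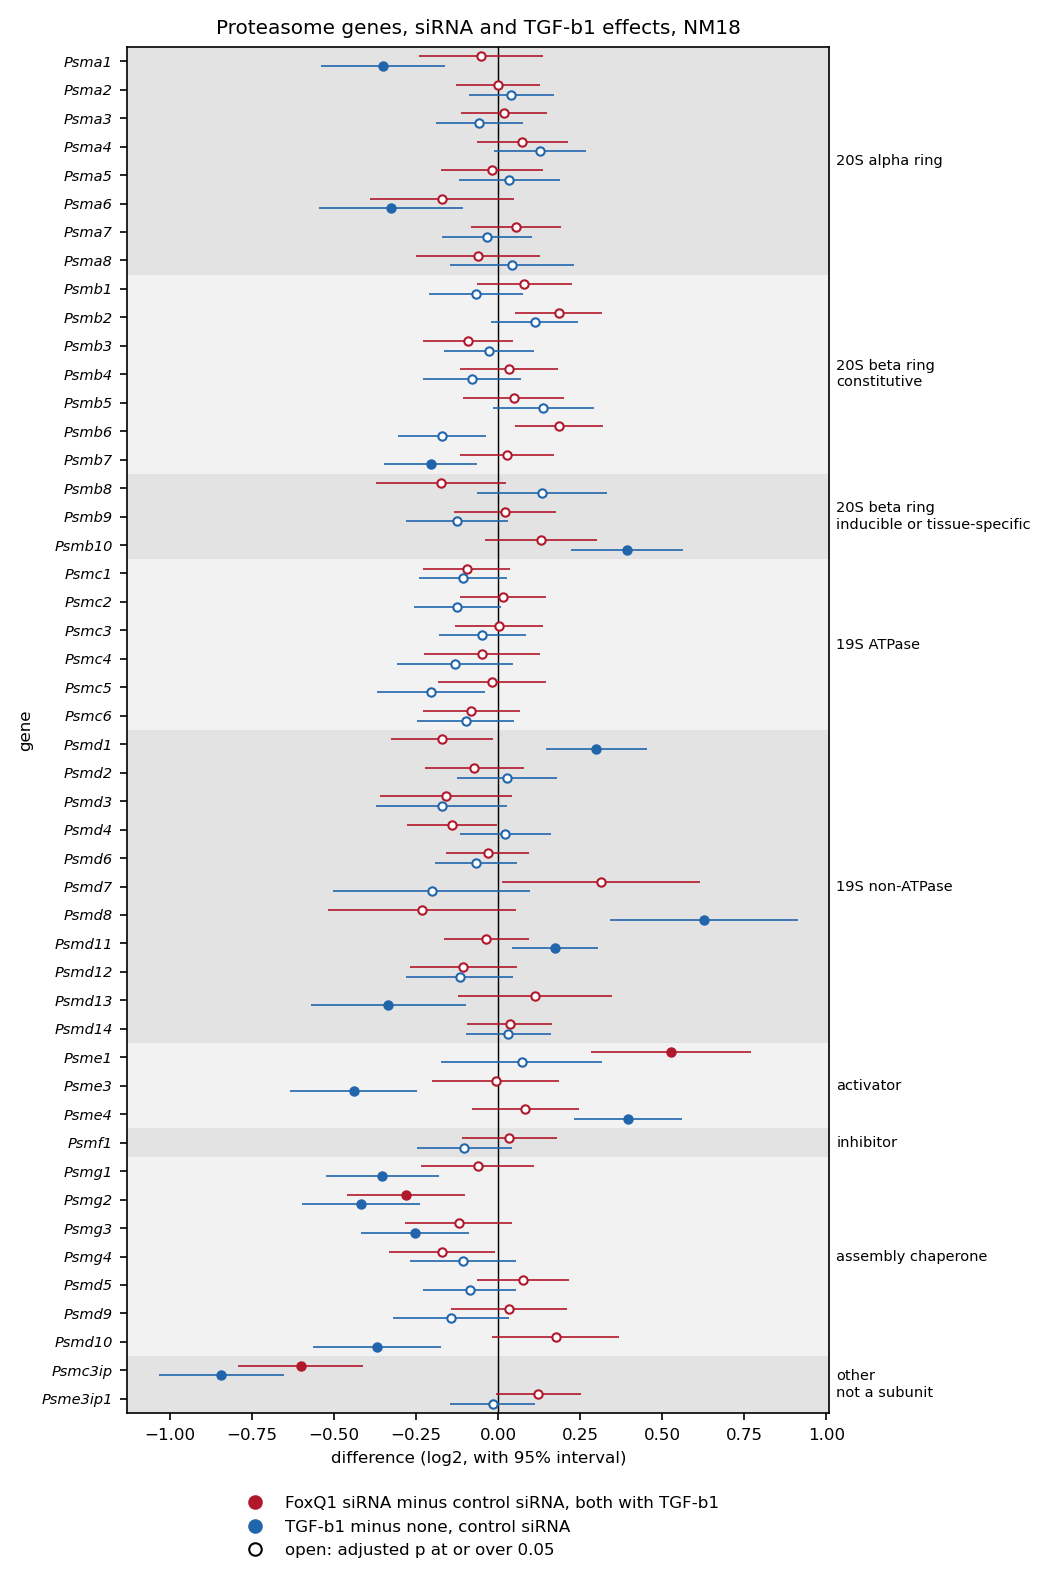
Log2 differences (with the 95% interval) for each of 48 proteasome genes in NM18 cells, by role: FoxQ1 siRNA minus control siRNA, both with TGF-b1 (red, above), and TGF-b1 minus none under control siRNA (blue, below). Filled points passed, and both comparisons use the 3 arrays of control siRNA with TGF-b1. Psme1 is filled at 0.53 for the siRNA, and Psmc3ip is filled on the left in both.

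Psme1 had 11.06, 11.11 and 11.20 with FoxQ1 siRNA against 10.55, 10.45 and 10.79 with control siRNA. All FoxQ1 siRNA arrays were higher, and it rose by 0.53 ± 0.11 (adjusted p = 0.00632), a call that held whichever of the 6 arrays was left out. Its TGF-b1 change at 40 h under control siRNA was 0.07 ± 0.11 (adjusted p = 0.716). The inducible subunits did not pass, with Psmb8 at -0.17 ± 0.09 (adjusted p = 0.231), Psmb9 at 0.02 ± 0.07 and Psmb10 at 0.13 ± 0.08 (adjusted p = 0.307). Psme3 had -0.01 ± 0.09 and Psme4 0.08 ± 0.07, neither called. Of the 6 antigen presentation genes 0 passed in limma and 1 had an unadjusted p under 0.05, Tapbp with 0.37 ± 0.12 (adjusted p = 0.0516). Of the 10 leukocyte markers 3 rose, Cd14 by 0.59 ± 0.10, Cd68 by 0.50 ± 0.11 and Ptprc by 0.35 ± 0.07, and 0 fell. Over the 10 markers 4 changes were above 0 and 6 below, with a median of -0.03. The mean level of the 10 was 6.84 to 6.85 with FoxQ1 siRNA and 6.74 to 6.80 with control siRNA. The part of the leukocyte markers in the Psme1 value was not tested.

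Psmc3ip had 7.83, 7.84 and 7.74 with FoxQ1 siRNA against 8.44, 8.40 and 8.38 with control siRNA, with no overlap, and fell by 0.60 ± 0.09 (adjusted p = 0.000583). Psmg2 had 9.08, 9.22 and 9.15 against 9.29, 9.49 and 9.51, with no overlap, and fell by 0.28 ± 0.08 (adjusted p = 0.0317). The Psmg2 call was lost in 4 of 6 cases of a left-out array, with the highest adjusted p, 0.118, without FoxQ1 siRNA array 1. The other chaperones had changes from -0.17 to 0.18 and none was called. Psmb5 had 0.05 ± 0.07, Psmb6 0.19 ± 0.06 (adjusted p = 0.0548), Psmb7 0.03 ± 0.06, Psmd14 0.04 ± 0.06 and Psmf1 0.03 ± 0.07. With the replicate number as a block, 10 members passed, 5 higher and 5 lower. The 19.6% of all genes is from the fit without this block, and the share with it is not given here. The additions were Psmb2, a constitutive beta subunit, Psmb6, Psmd7 and Psmd10 as higher, and Psma6, Psmb8 and Psmg4 as lower.

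Of the 21 partners, 3 rose and 2 fell with FoxQ1 siRNA. Nfe2l1, the factor that raises transcription of proteasome genes when the proteasome is impaired, rose by 0.37 ± 0.10 (adjusted p = 0.018), Ubqln2, a shuttle of ubiquitinated proteins, by 0.33 ± 0.07, and Ube3c, a ligase at the proteasome, by 0.28 ± 0.07. Ecpas, an adaptor of the assembled proteasome, fell by 0.50 ± 0.07 (adjusted p = 0.000487) and Uchl5 by 0.49 ± 0.08 (adjusted p = 0.00196).

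Set against untreated control siRNA cells, FoxQ1 siRNA with TGF-b1 changed 18 members, 6 higher and 12 lower, where 19.3% of all genes rose and 18.6% fell, 37.9% in all. The groups did not overlap for 8 members higher and 17 lower, against 23% and 22.1% of all genes. This comparison differs in both siRNA and TGF-b1 and shares arrays with both comparisons above. The largest rises were Psme1 at 0.60 ± 0.11, Psmb10 at 0.52 ± 0.08, Psme4 at 0.48 ± 0.07, Psmd8 at 0.40 ± 0.13, Psmb2 at 0.30 ± 0.06 and Psma4, an alpha subunit, at 0.20 ± 0.06. The largest falls were Psmc3ip at -1.44 ± 0.09 (adjusted p = 2.5e-07), Psmg2 at -0.70 ± 0.08, Psma6 at -0.50 ± 0.10, Psme3 at -0.45 ± 0.09, Psmg1 at -0.41 ± 0.08 and Psma1 at -0.40 ± 0.09. With single arrays left out, Psmd8 and Psma4 each stayed called in only 2 of 6 cases, with adjusted p up to 0.134 for Psmd8 and 0.0899 for Psma4, and Psmd8 did not pass with only the groups compared (adjusted p = 0.0602). The Psme3 change was -0.089 when its probe sets were averaged (adjusted p = 0.254). All 4 Psmg chaperones fell. Psmf1 also showed disagreeing probe sets: the one standing for the gene had -0.07 ± 0.07 (adjusted p = 0.501), while its other 3 rose by 0.39 to 0.44.

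**Figure D5:**
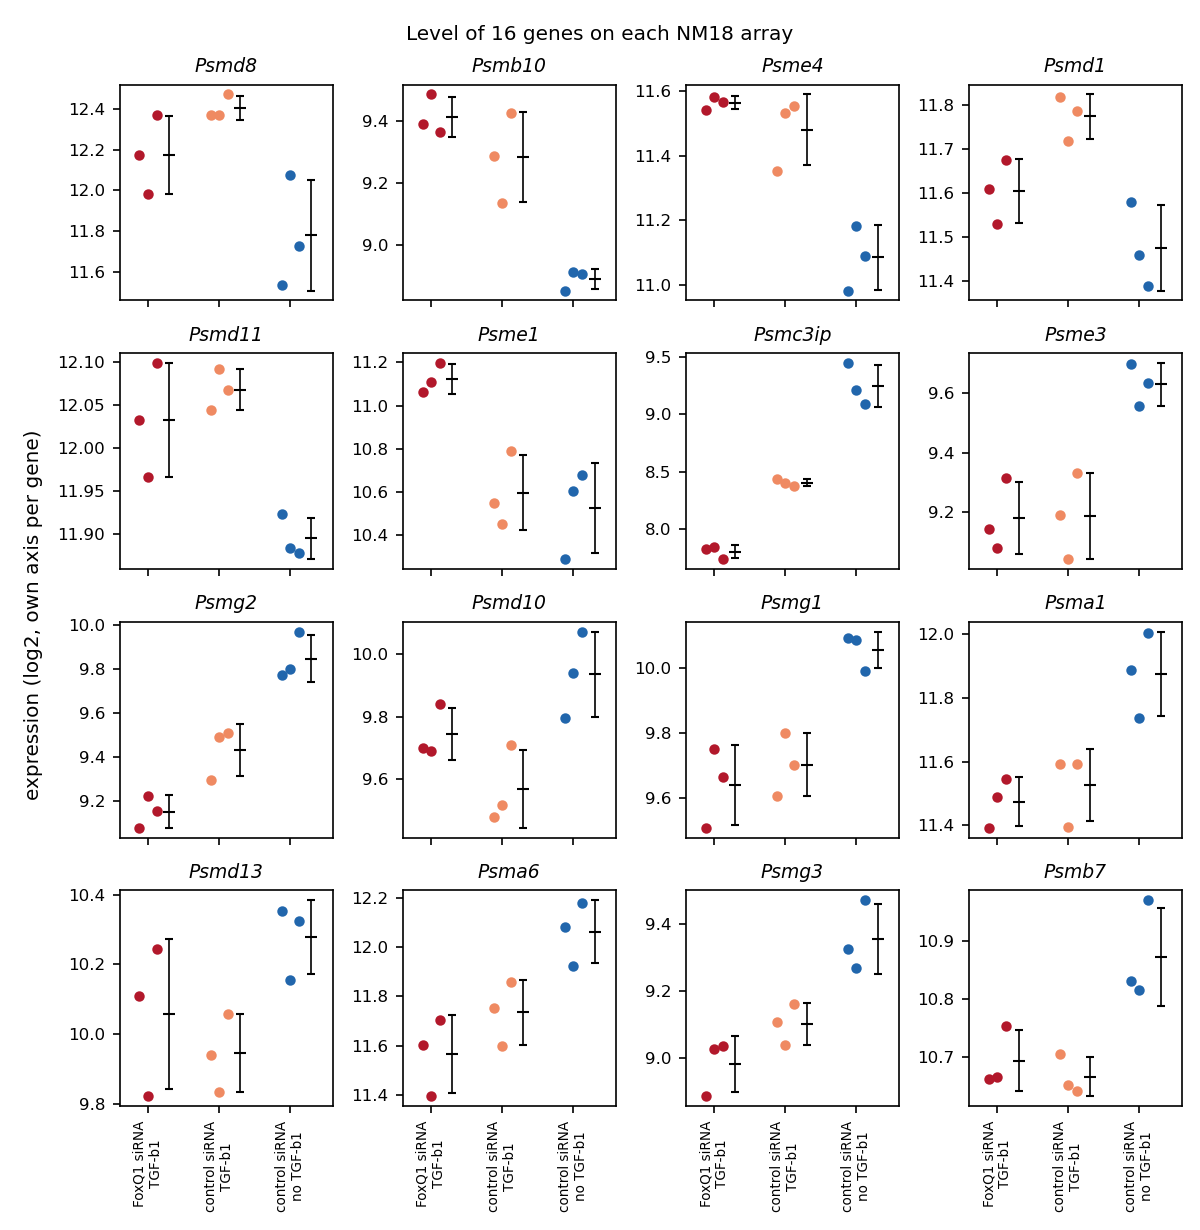
Level (log2, an axis of its own for each gene) of the 15 members called with TGF-b1 at 40 h and of Psme1 on every NM18 array, with the mean and SD (black) beside the 3 arrays of each group, which run left to right as FoxQ1 siRNA plus TGF-b1, then control siRNA plus TGF-b1, then untreated control siRNA. Psme1 is high in the FoxQ1 siRNA group (11.06 to 11.20), and Psmc3ip is lowest there (7.74 to 7.84) and highest in the untreated group (9.09 to 9.45).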

How the data were processed

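The members and lists were chosen with earlier results of these data known. The deposited series matrices hold the authors' log2 values per probe set. No label states that scale. It was read off the numbers, which span 2.34 to 14.8 for NMuMG and 4.57 to 14.6 for NM18, and fold changes rest on it. Background correction, summarisation and normalization are not given in the sources used here. The submitters' processing notes list affy 1.18.2, with no step attached. Newly made and total RNA were amplified linearly with a kit of several cycles, and NM18 RNA was labelled from the 3′ end, per the labels' protocols. The tables were normalized separately, so tests stay within a table. The number of arrays limits the precision, and p-values measure the spread between these arrays, which may be partly technical, since separate cultures are not stated.

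Probe sets were named from the platform annotation (34945 NMuMG and 20380 NM18 probe sets with 1 symbol, 932 and 691 with several, 9160 and 1555 with none, and 64 controls in each), with symbols checked through Entrez identifiers and 0 renamed. A gene was read from its brightest probe set (highest table-wide mean). One limma model per table (version 3.58.1, under R 4.3.3) covered all groups, with moderated two-sided tests on the deposited log2 values, with Benjamini-Hochberg adjustment over all genes. The procedure was tested on simulated data whose arrays were independent, so the pairing described next was not covered. The changes put in were larger than most member changes in NM18 cells, and the outcome is not given here. Same-numbered NM18 arrays had deviations from their group means that correlated at 0.16 to 0.61 (9 pairs), so the numbers pair them. In NMuMG cells this was 0.12 to 0.73 within a kind of RNA (6 pairs) and -0.18 to 0.32 between kinds (12 pairs).

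The text names every member called, or the 6 largest rises and 6 largest falls where more than 12 passed, 1 or 2 members a role group with the smallest p, the catalytic and inducible subunits, the activators, Psmd14, Psmf1, and up to 6 called partners a comparison. Foxq1 was named as the check of the siRNA. Other members and genes named, the probe set examples and the forkhead motif were chosen after their values were seen. Alternatives were quantile normalization, median centring, only genes above the median level, only the groups compared, a replicate block, averaging all probe sets of a gene, and leaving out each array. The replicate block within each kind of RNA and the test of single probe sets were chosen after seeing the data.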

Additional observations from a re-analysis of the deposited data

How the results depend on the processing

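In newly made RNA at 2 h, 1 member was called with a replicate block, 2 with a replicate block within each kind of RNA, and 0 to 2 without single arrays. The median member change at 2 h without single arrays ranged from -0.175 to 0.022 in total RNA, and that of the difference between newly made and total RNA from -0.091 to 0.102. The median newly made minus total change in TGF-b1 cells was -1.05 with quantile normalization, -1.13 with median centring, -1.35 above the median level, -0.76 when all probe sets of a gene were averaged, and -1.25 to -1.14 without single arrays. In control cells these were -0.90, -1.05, -1.36, -0.74, and -1.28 to -1.05. Median centring moved the median of all genes by 0.12 in TGF-b1 cells and 0.11 in control cells. The number of members lower was 35 to 37 in TGF-b1 cells and 39 to 41 in control cells without single arrays. With the mean of all probe sets, Psma1 was at 0.61, Psma3 at 0.29, Psmd7 at 0.18, Psmd9 at 0.022, Psme4 at 0.57 and Psmg3 at 0.17 in TGF-b1 cells, and Psma1 at 0.46, Psma3 at 0.31, Psmd7 at 0.092, Psme4 at 0.45 and Psmg3 at 0.14 in control cells, all turned in sign. Psmf1 turned to 0.30 in FoxQ1 siRNA with TGF-b1 against untreated cells. FoxQ1 siRNA against control siRNA called 5 members with quantile normalization, 5 above the median level, 5 when probe sets were averaged and 10 with the replicate block. In that comparison the calls of Psmc3ip and Psme1 were made under every alternative run. Apart from FoxQ1 siRNA against control siRNA and newly made RNA at 2 h, the replicate block moved no count of calls by over 1.5 times. Member counts in this section come without the share of all genes called in the same setting. Causes of these shifts were not tested. The setting above the median level tests fewer genes, and the mean of all probe sets includes the disagreeing probe sets. Of the single-gene results under the alternatives, 2268 kept direction and side of the threshold, 111 no longer passed, 34 newly passed and 12 turned in sign. Changes of sign where no fit passed were not counted as turned.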
